A study of Mus musculus with 7 samples.

Results

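The genes described here encode the receptors for serotonin, dopamine, noradrenaline and adrenaline, acetylcholine and histamine. They were taken by symbol from the deposited table as the rows whose names match the Htr, Drd, Adra, Adrb, Chrm, Chrn and Hrh receptor series. This gave 46 genes of 18331 uniquely named ones: 13 serotonin, 13 nicotinic acetylcholine, 9 adrenergic, 5 muscarinic acetylcholine, 3 dopamine and 3 histamine receptor genes. RNA came from neurons sorted by fluorescence from dissected arcuate nuclei of mouse embryos at stage E15.5. Of the libraries, 4 are labelled Pomc (neurons of proopiomelanocortin, from which peptides that reduce appetite are cut) and 3 columns are labelled Npy (neurons that make neuropeptide Y, which stimulates feeding). No genotype, reporter allele, strain, sex or litter is given in the sources used here, and no group was treated. Npy replicate 3 was left out because its column is computed from the other Npy columns: in 15223 of 15223 genes it equals their mean times a whole percent from 95 to 105. The comparison is therefore 4 Pomc against 2 Npy libraries. Nothing says that the replicates came from separate animals, so the spread behind the p-values may be technical.

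Monoamines, acetylcholine and histamine reach the hypothalamus from brainstem, midbrain, forebrain and local neurons and set the excitability of feeding circuits. Most of their receptors are G protein-coupled. Those coupled to Gs raise cyclic AMP, those coupled to Gi/o lower it and dampen firing, and those coupled to Gq act through phospholipase C. The nicotinic receptors and the serotonin receptor built from Htr3 subunits are instead ion channels made of subunits from several genes. In the adult arcuate nucleus, Pomc neurons are known as targets of serotonin through Htr2c and of acetylcholine through nicotinic receptors.

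The values were read as TPM (a value per gene length, scaled so that each library sums to 1000000). The table names no unit, and levels of different genes can be set side by side only on this reading. Values above 0 repeat in at most 6 genes per library, where reads scaled to a fixed total without length would give all genes with 1 read the same value. In genes with 1 annotated transcript, the lowest 5% of values above 0 reached 1.12 to 2.80 TPM in the shortest quartile of genes and 0.137 to 0.391 TPM in the longest. The shortest quartile has a median length of 84 bases. From quartile 2 to quartile 4 the fall was not steady in every library. It ran 0.316, 0.189 and 0.216 TPM in Pomc replicate 1 and 0.663, 0.842 and 0.390 TPM in Pomc replicate 4. The table gives no read counts, so the number of reads behind each value is unknown here, and a 0 is no more than a listed 0. Summed over the 46 genes, the libraries held 328, 213, 223 and 275 TPM in Pomc replicates 1 to 4 and 185 and 205 TPM in Npy replicates 1 and 2. Receptor genes above 0 numbered 28, 27, 27 and 20 in the Pomc libraries and 25 and 22 in the Npy libraries. Pomc replicate 4, the library with fewest receptor genes, also had the fewest genes of all kinds above 0, 12493 against 13929 to 14656 in the other Pomc libraries. Npy replicate 2 was nearly as low, with 12922 genes above 0 against 14933 in Npy replicate 1.

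A gene was tested if it reached 1 TPM in at least 2 of the 6 libraries, and 25 of the 46 receptor genes did. None of the 25 passed an adjusted p of 0.05 in either direction (limma over all 13845 tested genes with Benjamini-Hochberg adjustment). Among all tested genes 0.412% passed, which is 57 genes, 0.289% as higher in Pomc and 0.123% as higher in Npy. At an unadjusted p under 0.05 there were 3 receptor genes, Chrna7, Htr6 and Chrm2, 12% of the 25 beside 7.36% of all tested genes. The median log2 fold change, Pomc minus Npy on log2(TPM + 1), was 0.05 over the 25 and 0.02 over all tested genes, and 13 of the 25 lay above 0. The groups did not overlap in 7 of the 25, beside 15.9% of all tested genes. In 2 of the 7 every Pomc library was above both Npy libraries (8.05% of all tested genes) and in 5 both Npy libraries were above (7.86%). Htr6, Adra2c and Chrnb4 met the filter through Pomc libraries alone and Chrm2 through the Npy libraries alone, so these counts describe the genes that passed and do not support a difference. In the order of single genes, Chrna4 and Chrnb2 stood far above the rest. They averaged 67.4 and 62.3 TPM over the 6 libraries, the third gene, Chrna7, averaged 12.6 TPM, and the other 43 averaged 9.53 TPM or less. Averages of 67.4 and 12.6 TPM exceed those of 76.7% and 34.0% of all tested genes.

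**Figure D1:**
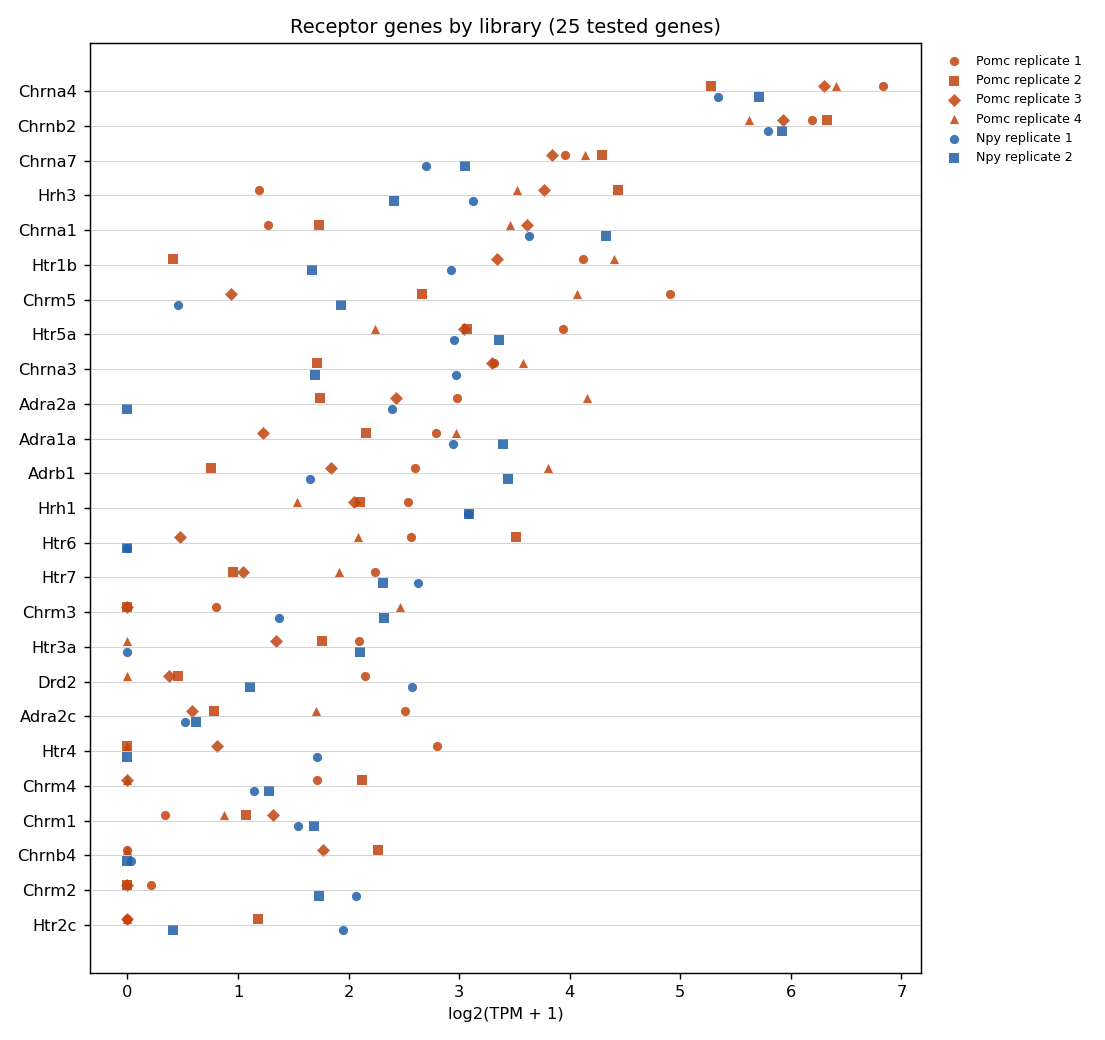
Level of each of the 25 tested receptor genes in each library, as log2(TPM + 1) on the horizontal axis, with genes ordered by their mean over 6 libraries; red marks are the 4 Pomc and blue marks the 2 Npy libraries, and each shape is a replicate. Chrna4 and Chrnb2 lie to the right of all other genes, the Chrna7 values of the Pomc libraries lie to the right of the Npy values, and most other genes overlap between the groups.

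The windows before the start sites of the 3 most abundant genes are shown because these genes make up most of the receptor RNA of both neuron types. In 1 of them, Chrna7, every Pomc library was above both Npy libraries, as in 8.05% of all tested genes, and the difference did not pass. Each line is the 250 bases before the start that RefSeq gives the gene, 5′ to 3′ on the gene's own strand (the minus strand for all 3), from RefSeq on GRCm38.p6. Capitals mark the GC box GGGCGG or its complement CCGCCC. The windows are chr2:181039178-181039427 for Chrna4, chr3:89764633-89764882 for Chrnb2 and chr7:63212527-63212776 for Chrna7. GENCODE, from which the gene bounds given below come, starts Chrna4 and Chrna7 further upstream, so the Chrna4 window lies inside those bounds and the Chrna7 window partly so.
Chrna4: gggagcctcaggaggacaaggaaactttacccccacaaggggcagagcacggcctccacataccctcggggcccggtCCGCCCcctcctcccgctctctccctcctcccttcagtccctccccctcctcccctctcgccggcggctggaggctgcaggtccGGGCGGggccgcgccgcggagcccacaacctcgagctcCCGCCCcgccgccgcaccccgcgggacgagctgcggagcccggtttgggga
Chrnb2: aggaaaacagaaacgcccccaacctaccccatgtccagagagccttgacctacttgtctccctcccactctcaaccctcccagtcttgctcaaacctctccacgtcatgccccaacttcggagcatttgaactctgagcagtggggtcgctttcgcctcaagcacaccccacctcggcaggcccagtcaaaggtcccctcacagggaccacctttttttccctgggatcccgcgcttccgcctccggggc
Chrna7: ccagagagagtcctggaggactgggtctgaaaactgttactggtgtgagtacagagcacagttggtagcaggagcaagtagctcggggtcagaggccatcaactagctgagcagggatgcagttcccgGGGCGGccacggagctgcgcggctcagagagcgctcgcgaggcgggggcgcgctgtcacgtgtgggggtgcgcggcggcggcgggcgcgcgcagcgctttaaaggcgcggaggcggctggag

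The Chrna4 window holds 3 GC boxes, the Chrna7 window 1 and the Chrnb2 window 0, on both strands together, where 32.7% of 32851 windows of the same length hold at least 1. None of the 3 windows holds the TATA box TATAAA, which 12.4% of all windows hold on either strand. The E-box CANNTG occurs 2 times in the Chrna7 window, 1 time in that of Chrnb2 and 0 times in that of Chrna4, and 66.2% of all windows hold 1 or more. G and C make up 74.4%, 59.6% and 67.2% of the Chrna4, Chrnb2 and Chrna7 windows, above the median of 52.4% over all windows. These matches describe letters only. RefSeq windows were found for 35 of the 46 genes.

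Nicotinic subunit genes supplied most of the receptor RNA, 62.8 to 77.9% of the summed TPM of the 46 genes in the Pomc libraries and 63.6 and 68.2% in the Npy libraries. Chrna4 and Chrnb2 encode the subunits of the most common nicotinic receptor of the brain. Chrna4 (chromosome 2, 181018380 to 181043546, GRCm38) stood at 113, 37.8, 78.0 and 84.1 TPM in Pomc replicates 1 to 4 and at 39.6 and 51.4 TPM in the Npy pair. Pomc replicates 1, 3 and 4 were above both Npy libraries and Pomc replicate 2 was below them. The log2 fold change was 0.68 with a 95% interval from -0.21 to 1.57 (limma adjusted p = 0.791). Chrnb2 (chromosome 3, 89746195 to 89764632) stood at 72.3, 79.3, 60.1 and 48.2 TPM in Pomc replicates 1 to 4 and at 54.3 and 59.6 TPM in the Npy pair. Its groups overlapped, and its interval was the narrowest of the 25, from -0.42 to 0.75 around 0.16 (adjusted p = 0.919). An exon of Chrnb2 overlaps one of Adar on the opposite strand, and whether counting used strand is not given in the sources here. The ratio of Chrna4 to Chrnb2 TPM was 1.57, 0.476, 1.30 and 1.75 in Pomc replicates 1 to 4 and 0.729 and 0.863 in Npy replicates 1 and 2, so the ratio was above 1 in 3 Pomc libraries only and lowest in the other one. Together both genes made up 76.4 to 87.5% of nicotinic TPM across the Pomc group and 79.8 and 79.5% in the Npy libraries.

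Chrna7 encodes the subunit that forms nicotinic channels of a single subunit type with high calcium permeability. Chrna7 (chromosome 7, 63098692 to 63212569) stood at 14.6, 18.6, 13.3 and 16.7 TPM in Pomc replicates 1 to 4 and at 5.51 and 7.28 TPM in the Npy pair. Every Pomc library was above both Npy libraries, and the mean was 2.47-fold higher. The log2 fold change of 1.18 ± 0.47 (SE) did not pass over all genes (adjusted p = 0.607, unadjusted p = 0.0315). Its spread among the Pomc libraries, 14.8% of the mean (SD, n = 4), was the smallest of the 25 genes.

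Chrna1, a subunit best known from muscle, went the other way. It stood at 1.41, 2.33, 11.2 and 9.98 TPM in Pomc replicates 1 to 4 and at 11.4 and 19.0 TPM in the Npy pair. The groups did not overlap, though Pomc replicates 3 and 4 were close to Npy replicate 1 (limma adjusted p = 0.775). Of 10 listed muscle markers 6 were measured, and Myod1, Myog, Myf5 and Ckm were not among them. The 6 summed to 0.786 to 9.36 TPM across the Pomc group and to 9.22 and 2.71 TPM in the Npy pair. The partner subunit gene Chrnb1 was at 0 in 5 libraries and at 0.0893 TPM in Pomc replicate 2. A muscle source of the Chrna1 RNA was not tested. Rapsn, which clusters muscle nicotinic receptors, was at 0 in both Npy libraries used and in Pomc replicates 1 and 2, and reached 1.75 and 4.96 TPM in Pomc replicates 3 and 4, the Pomc libraries with the higher Chrna1 values.

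Chrna3 and Chrnb4, neighbours on chromosome 9 whose products pair in ganglionic receptors, did not run in parallel. Chrna3 stood at 8.98, 2.27, 8.82 and 11.0 TPM in Pomc replicates 1 to 4 and at 6.85 and 2.24 TPM in the Npy pair. Chrnb4 was listed at 0 in Pomc replicates 1 and 4 and stood at 3.80 and 2.41 TPM in Pomc replicates 2 and 3 and at 0.0236 and 0 TPM in the Npy pair. The highest Chrnb4 value thus came from the Pomc library with the lowest Chrna3 value. Chrna5, the third gene of this cluster, reached 1.51 TPM in Pomc replicate 1 and was not tested, and Chrna2 had a value in Pomc replicate 4 alone, 3.16 TPM. Chrna6, Chrna9, Chrna10 and Chrnb3 were listed at 0 in all 6 libraries.

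Of the genes that serve nicotinic receptor assembly, 10 of 12 listed symbols were in the table, 8 were tested and none passed (limma). Of the 8, 2 had an unadjusted p under 0.05, beside 7.36% of all tested genes. Tmem35, which encodes a chaperone needed for assembly of Chrna7 channels, stood at 64.8, 20.1, 21.9 and 38.2 TPM in Pomc replicates 1 to 4 and at 15.8 and 12.7 TPM in the Npy pair. Every Pomc library was above both Npy libraries (log2 1.14 ± 0.50, adjusted p = 0.667, unadjusted p = 0.0471). Ric3, another nicotinic chaperone, overlapped between the groups at 21.4 to 45.0 TPM against 30.9 and 19.9 TPM. Ly6h, a membrane protein that holds back Chrna7 channels, had the highest mean of the list, at 241 to 357 TPM across the Pomc group and 267 and 389 TPM in the Npy pair.

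The 5 muscarinic receptor genes summed to 32.5, 9.79, 2.40 and 21.1 TPM in Pomc replicates 1 to 4, a wide range that holds both Npy values, 8.28 and 12.8 TPM. This range follows 1 gene. Chrm5, a Gq-coupled receptor, stood at 29.0, 5.33, 0.920 and 15.7 TPM in Pomc replicates 1 to 4 and at 0.377 and 2.83 TPM in the Npy pair. Pomc replicates 1, 2 and 4 were above both Npy libraries and Pomc replicate 3 lay between them (log2 1.95, 95% interval from -0.47 to 4.36, limma adjusted p = 0.775). Chrm2, the Gi/o-coupled receptor of heart and cholinergic terminals (chromosome 6, 36388084 to 36528414), reached 3.19 and 2.32 TPM in Npy replicates 1 and 2. Of the Pomc libraries, replicate 1 held 0.156 TPM and the other 3 were at 0. Both Npy libraries were above every Pomc library, and the difference did not pass (log2 -1.85 ± 0.62, adjusted p = 0.489, unadjusted p = 0.0153). An exon of Chrm2 overlaps a noncoding gene on the opposite strand. At these levels the size depends on the pseudocount, with log2 -4.48 at a pseudocount of 0.1 and -0.62 at 5.

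Chrm1 lay at 0.263, 1.10, 1.48 and 0.830 TPM in Pomc replicates 1 to 4, below both Npy libraries at 1.91 and 2.22 TPM. Its log2 fold change was -0.72 with an interval from -2.18 to 0.75 (adjusted p = 0.856). A small RNA gene lies over an exon of Chrm1 on the opposite strand. Chrm3 was listed at 0 in Pomc replicates 2 and 3, at 0.743 and 4.51 TPM in Pomc replicates 1 and 4, and at 1.58 and 3.98 TPM in the Npy pair. Chrm4 was listed at 0 in Pomc replicates 3 and 4, at 2.27 and 3.36 TPM in Pomc replicates 1 and 2, and at 1.22 and 1.44 TPM in the Npy pair. Both genes overlapped between the groups.

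**Figure D2:**
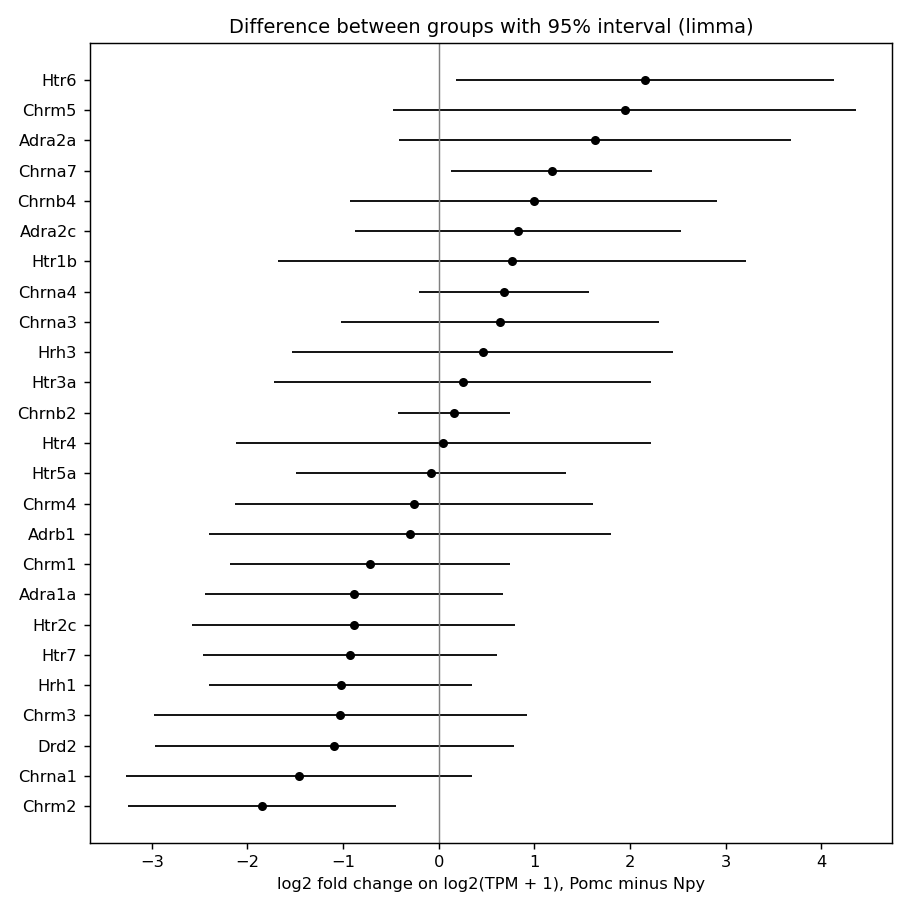
Difference between the groups for the 25 tested receptor genes, as the log2 fold change on log2(TPM + 1), Pomc minus Npy, with points for the limma estimate and bars for its 95% interval. The intervals of Htr6, Chrna7 and Chrm2 leave out 0 before adjustment over all genes, none passes after it, and the Chrnb2 interval, from -0.42 to 0.75, is the narrowest.

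Serotonin receptor genes were at low levels in both groups, summing to 50.4, 26.9, 21.4 and 30.1 TPM in Pomc replicates 1 to 4 and to 25.3 and 19.1 TPM in the Npy pair. Of 13 genes, 7 were tested and none passed. Htr1b, a Gi/o-coupled receptor that limits transmitter release, had the highest mean. It stood at 16.4, 0.331, 9.16 and 20.1 TPM in Pomc replicates 1 to 4 and at 6.59 and 2.18 TPM in the Npy pair. Pomc replicates 1, 3 and 4 were above both Npy libraries and Pomc replicate 2 was below both (log2 0.77, interval from -1.68 to 3.22, limma adjusted p = 0.909). A noncoding gene overlaps an exon of Htr1b on the opposite strand. Htr5a, which also couples to Gi/o, stood at 14.4, 7.40, 7.26 and 3.73 TPM against 6.76 and 9.29 TPM. Its means were 8.19 ± 4.46 TPM (SD, n = 4) and 8.03 TPM, with an interval from -1.50 to 1.33.

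The Gs-coupled receptors Htr6 and Htr7 lay on opposite sides. Htr6 (chromosome 4, 139061108 to 139075570), a receptor found mainly in the brain, stood at 4.90, 10.4, 0.393 and 3.24 TPM in Pomc replicates 1 to 4 and was at 0 in Npy replicates 1 and 2. The groups did not overlap, and the gene did not pass (adjusted p = 0.616, unadjusted p = 0.0354). Htr7, a receptor with a known role in circadian timing, stood at 3.73, 0.934, 1.07 and 2.76 TPM in Pomc replicates 1 to 4, below 5.18 and 3.96 TPM in the Npy pair (log2 -0.93, interval from -2.47 to 0.61, adjusted p = 0.828). Htr4 had values in Pomc replicates 1 and 3 and in Npy replicate 1, at 5.97, 0.756 and 2.28 TPM, and was listed at 0 in the other 3 libraries.

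Htr2c, the receptor through which serotonin excites adult Pomc neurons, was near the floor of the table. It was at 0 in 3 Pomc libraries and stood at 1.27 TPM in Pomc replicate 2 and at 2.88 and 0.332 TPM in the Npy pair (log2 -0.89, interval from -2.58 to 0.80, limma adjusted p = 0.853). Htr3a, the channel subunit, reached 3.27, 2.40, 1.54 and 0 TPM in Pomc replicates 1 to 4 and 0 and 3.29 TPM in the Npy pair, and its partner Htr3b had at most 0.0634 TPM. Among genes not tested, Htr1a reached 0.951 TPM and Htr2a 1.08 TPM. Htr1d had values in all 4 Pomc libraries, 0.191 to 2.55 TPM, and was at 0 in Npy replicates 1 and 2. Htr5b reached 0.623 TPM in 1 library, and Htr1f was listed at 0 in all 6.

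Adrenergic receptor genes summed to 24.0, 7.23, 8.80 and 38.9 TPM in Pomc replicates 1 to 4 and to 13.5 and 19.9 TPM in the Npy pair, and none of the 4 tested passed. Adra2a, a Gi/o-coupled receptor and autoreceptor of noradrenergic neurons, stood at 6.91, 2.35, 4.39 and 16.8 TPM in Pomc replicates 1 to 4 and at 4.24 and 0 TPM in the Npy pair. Pomc replicates 1, 3 and 4 were above both Npy libraries (log2 1.63, interval from -0.42 to 3.68, limma adjusted p = 0.780). It was log2 0.44 without Npy replicate 2 and 2.83 without Npy replicate 1. Adra2c, its relative, stood at 4.69, 0.720, 0.502 and 2.26 TPM against 0.437 and 0.536 TPM, and overlapped only through Pomc replicate 3. The Gq-coupled Adra1a had the opposite order, with 5.91, 3.47, 1.33 and 6.84 TPM in Pomc replicates 1 to 4 and 6.71 and 9.51 TPM in the Npy pair, and overlapped through Pomc replicate 4 (log2 -0.88, interval from -2.44 to 0.68). Adrb1, which couples to Gs, stood at 5.05, 0.693, 2.58 and 13.0 TPM against 2.15 and 9.88 TPM, so the spread within each group was larger than the difference between them. Adra1b reached 1.46 TPM in Pomc replicate 1 and was at 0 elsewhere, and Adra1d, Adra2b and Adrb3 were listed at 0 in all 6 libraries.

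Histamine acts in the brain mainly through Hrh1, a Gq-coupled excitatory receptor, and Hrh3, a Gi/o-coupled receptor that limits the release of histamine and other transmitters. Hrh1 (chromosome 6, 114397936 to 114483296) stood at 4.82, 3.29, 3.15 and 1.89 TPM in Pomc replicates 1 to 4 and at 7.45 and 7.51 TPM in the Npy pair. Both Npy libraries were above every Pomc library, and the mean was 2.27-fold higher, without passing the test (log2 -1.03, interval from -2.41 to 0.35, limma adjusted p = 0.792). Hrh3 stood at 1.28, 20.7, 12.6 and 10.5 TPM in Pomc replicates 1 to 4 and at 7.74 and 4.33 TPM in the Npy pair. Pomc replicates 2, 3 and 4 were above both Npy libraries and Pomc replicate 1 below both (log2 0.46, interval from -1.53 to 2.45). An antisense gene overlaps an exon of Hrh3. Hrh2 was listed at 0 in all 6 libraries.

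Dopamine receptor genes were the lowest family. Drd2, a Gi/o-coupled receptor, stood at 3.45, 0.372, 0.296 and 0 TPM in Pomc replicates 1 to 4 and at 4.94 and 1.15 TPM in the Npy pair (log2 -1.09, interval from -2.97 to 0.78, limma adjusted p = 0.836). Pomc replicate 1 lay between the Npy libraries and the other 3 Pomc libraries lay below both. Drd4 reached 0.687 TPM and Drd5 was listed at 0 in all 6 libraries. The table lists the gene now called Drd1 under its older symbol Drd1a, outside the rule. It reached 2.49 TPM in Pomc replicate 4 and 0.574 and 0.402 TPM in the Npy pair.

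**Figure D3:**
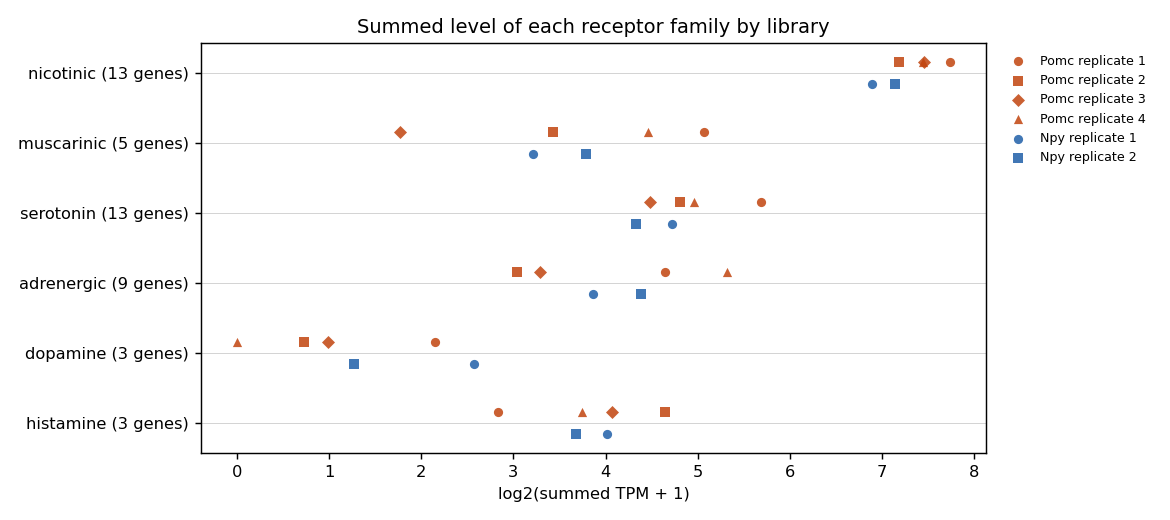
Summed TPM of each receptor family in each library, as log2(summed TPM + 1), with red marks for the 4 Pomc and blue marks for the 2 Npy libraries. Nicotinic genes sum to at least 118 TPM in every library, the other families to at most 50.4 TPM, and the Pomc libraries lie above the Npy libraries for the nicotinic family alone.

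Grouped by signalling, the 15 channel genes summed to 147 to 215 TPM across the Pomc group and to 118 and 143 TPM in the Npy pair. The 14 Gi/o-coupled receptors summed to 50.7, 39.6, 35.4 and 53.7 TPM in Pomc replicates 1 to 4 and to 35.7 and 21.5 TPM in the Npy pair, so that Pomc replicate 3 lay just under Npy replicate 1. The 9 Gq-coupled receptors, at 7.59 to 42.8 TPM against 22.0 and 26.4 TPM, and the 8 Gs-coupled receptors, at 4.80 to 19.7 TPM against 9.61 and 13.8 TPM, overlapped. The receptor with the highest level among the G protein-coupled ones differed from library to library. It was Chrm5 in Pomc replicate 1, Hrh3 in Pomc replicates 2 and 3 and in Npy replicate 1, Htr1b in Pomc replicate 4 and Adrb1 in Npy replicate 2.

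Variation among the 4 Pomc libraries was large for most G protein-coupled receptors. The SD was 70.6% of the mean for Hrh3, 75.9% for Htr1b, 98.0% for Chrm5 and 101% for Adrb1. It was 36.5% for Hrh1 and 54.5% for Htr5a. The nicotinic genes Chrna7, Chrnb2 and Chrna4, which have the highest means of all receptor genes, had 14.8%, 21.1% and 39.7%. Nicotinic genes with lower means varied more, with 48.8% for Chrna3, 81.4% for Chrna1 and 121% for Chrnb4. The deviating library was not the same one throughout. Pomc replicate 2 was lowest for Htr1b, Adrb1, Adra2a, Chrna3 and Chrna4 but highest for Hrh3, Htr6 and Chrna7, and Pomc replicate 1 was lowest for Hrh3 and Chrna1 but highest for Chrna4, Chrm5 and Htr5a. Of the 46 genes, 15 were above 0 in all 6 libraries, 9 reached 1 TPM in all 6, and 11 were listed at 0 in all 6. The 10 that had a value and were not tested reached 3.16 TPM at most. Of these 46 genes, 8 had a value in at least 1 Pomc library and 0 in both Npy libraries, and 0 had the reverse pattern. With 4 Pomc libraries against 2, a value had more chances to appear in the Pomc group. The share of all genes with either pattern was not counted, so these counts show nothing particular to the receptor genes.

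Genes that make, load and clear these transmitters were read from the same fit. Of 24 listed genes, 23 were in the table, 11 were tested and none passed (limma). Of the 11, 3 had an unadjusted p under 0.05, beside 7.36% of all tested genes. Th, the rate-limiting enzyme of dopamine synthesis, stood at 12.1, 16.7, 13.1 and 1.42 TPM in Pomc replicates 1 to 4 and at 96.8 and 116 TPM in the Npy pair (log2 -3.50 ± 0.74, adjusted p = 0.142). Slc18a2, which loads monoamines into vesicles, lay the same way, at 4.66, 1.87, 0.503 and 3.00 TPM against 8.89 and 9.25 TPM (log2 -1.68 ± 0.71, adjusted p = 0.65). Hdc, which makes histamine, lay the opposite way, at 12.0, 4.64, 10.6 and 5.25 TPM in Pomc replicates 1 to 4 and 2.61 and 0 TPM in the Npy pair (log2 2.17 ± 0.75, adjusted p = 0.526). For these 3 genes the groups did not overlap, as for 15.9% of all tested genes. Ddc, which completes dopamine and serotonin synthesis, overlapped at 0 to 23.1 TPM against 16.4 and 13.8 TPM. The highest mean of the list belonged to Slc29a4, a low-affinity monoamine transporter, at 95.2 to 127 TPM across the Pomc group and 77.0 and 99.8 TPM in the Npy pair. Chat, Tph2 and Slc6a3, which define cholinergic, serotonergic and most dopaminergic neurons, were listed at 0 in all 6 libraries. Slc18a3, the vesicular acetylcholine transporter, stood at 17.9 TPM in Npy replicate 2 and at 0.409 TPM or less elsewhere.

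Downstream of the receptors, G protein alpha subunit genes were abundant, with Gnai2 at 536 to 667 TPM across the Pomc group and 419 and 498 TPM in the Npy pair. None of the 11 tested passed, and Gna12 had an unadjusted p of 0.032 (limma; 122, 124, 83.0 and 108 TPM against 59.0 and 82.9 TPM, log2 0.62 ± 0.24, adjusted p = 0.61). Of the adenylyl cyclase and phospholipase C beta genes, none of 10 tested passed. Plcb4, a phospholipase activated by Gq, had the highest mean and stood at 96.5, 144, 136 and 122 TPM in Pomc replicates 1 to 4, above 73.6 and 44.9 TPM in the Npy pair (log2 1.08 ± 0.26, adjusted p = 0.221). Plcb1, its relative, stood at 28.6, 29.5, 41.8 and 36.8 TPM against 25.3 and 0.626 TPM, a difference that rests mainly on Npy replicate 2 (log2 2.41 ± 0.90, adjusted p = 0.568). Among 16 tested receptor kinase, arrestin and RGS genes none passed. Adrbk1, a kinase that desensitizes receptors, had the highest mean and overlapped between the groups at 81.1 to 129 TPM against 78.3 and 98.4 TPM. Rgs16 was higher in each Pomc library, at 5.60 to 27.0 TPM against 4.05 and 0 TPM (adjusted p = 0.489), and Rgs10 lower, at 5.81 to 21.7 TPM against 33.6 and 36.8 TPM (adjusted p = 0.526). Both encode proteins that speed up the inactivation of G proteins.

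**Figure D4:**
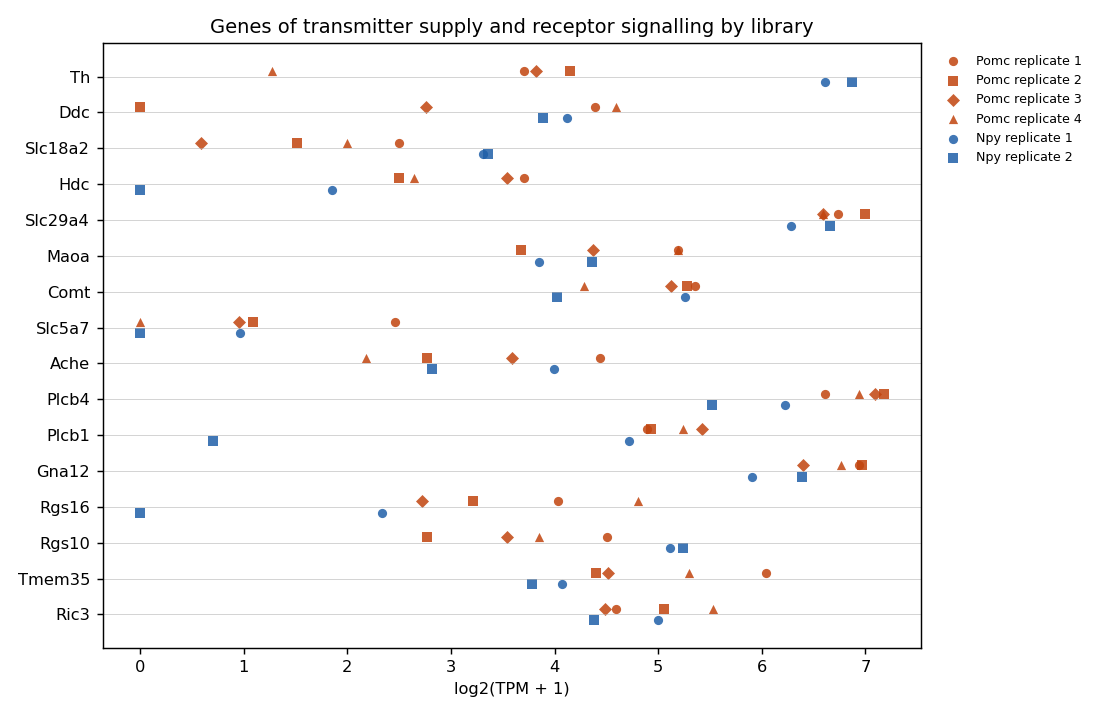
Levels of 16 genes of transmitter supply and receptor signalling in each library, as log2(TPM + 1), with red marks for the 4 Pomc and blue marks for the 2 Npy libraries. Th, Slc18a2 and Rgs10 lie higher in both Npy libraries, Hdc, Plcb4, Plcb1, Gna12, Rgs16 and Tmem35 higher in every Pomc library, and the other 7 overlap. None of the 16 passed the test. The genes that do not overlap all had an unadjusted p under 0.05 (limma), a ground on which list genes were named. Their number therefore reflects the choice of genes. Among all tested genes the groups do not overlap in 15.9%.

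The labelled neuron types were checked by their own genes. Pomc stood at 352 to 770 TPM across the Pomc group and at 24.0 and 59.4 TPM in the Npy pair, and Npy at 2.11 to 152 TPM against 728 and 513 TPM. Some markers of other cells differed in level between the groups. Oligodendrocyte precursor markers, 7 of 7 measured, summed to 3.88 to 21.4 TPM across the Pomc group and to 236 and 222 TPM in the Npy pair. Of the 7, 6 passed the test (limma) as higher in Npy, beside 0.123% of all tested genes. Cell division markers, 10 of 10 measured with none passing, summed to 41.7 to 98.2 TPM against 153 and 102 TPM, and 13 pan-neuronal markers summed to 5671 to 7144 TPM against 5243 and 4366 TPM. No gene of the other marker lists passed (radial glia and astrocytes, microglia and mast cells, endothelial cells and pericytes, fibroblasts, pituitary, muscle, peripheral neurons, dopaminergic and histaminergic neurons). The radial glia and astrocyte markers, 11 of 11 measured with Gfap at 0 throughout, summed to 293 to 678 TPM against 658 and 431 TPM, of which Vim made up 201 to 530 TPM and 206 and 155 TPM. Of the 9 tested, 3 had no overlap between the groups and were higher in Npy, beside 7.86% of all tested genes. None of the 3 passed the test: Fabp7 at 1.61 to 61.6 TPM against 323 and 176 TPM, Nes at 14.6 to 26.4 TPM against 40.05 to 49.04 TPM, and Hes5 at 0.999 to 9.57 TPM against 14.0 and 28.9 TPM. The part of these cells in the levels of Chrm1, Chrm2, Chrna1, Hrh1 and Htr7, which were higher in both Npy libraries, and of Chrna7 and Htr6, which were higher in every Pomc library, was not tested. In sorted bulk samples, fewer cells with a receptor and less receptor RNA per cell cannot be told apart.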

How the data were processed

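RNA was measured in 4 Pomc and 3 Npy samples; per the labels' protocols each library was made from 1 ng of total RNA with a stranded total RNA kit. The authors deposited 1 table of 18335 rows without a stated unit. Its values were taken as TPM deposited by the authors, because the columns used sum to 1000000 and the lowest values above 0 are smaller in the longest than in the shortest genes. HISAT2, mm10 and edgeR 3.8 are named, per the submitters' processing notes, without a role. For counting tool, annotation, strand use and gene lengths the sources used here say nothing, and depth is unknown because the table holds no counts.

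Log2(TPM + 1) was fitted with limma 3.58.1 in R 4.3.3 (trended prior variance) over 13845 genes with 1 TPM in at least 2 of 6 libraries. The 4 rows with repeated symbols were left out. Tests are two-sided, p-values are adjusted by Benjamini-Hochberg over all tested genes, and intervals are 95% intervals of the fit, unadjusted. The fit was tested on simulated data in which only genes with higher mean levels were given a change. That test therefore does not show how well changes are found in genes near the floor. An exact permutation test of 4 against 2 libraries cannot give a p under 0.0667 and was not used. Replicate numbers were not taken as pairs, since no label ties them (correlation of deviations -0.0436 and -0.0334). Gene positions are from GENCODE on GRCm38, the build of mm10. Receptor genes and lists were chosen with earlier results of these data known. All tested receptor genes are named with their values. Some other genes are not reported here. Of list genes, those with an unadjusted p under 0.05 or the highest mean of their list are named, and further ones were chosen after their values were seen. Alternatives were pseudocounts of 0.1 and 5, other filters, no trend, 2 other scalings, all 7 columns, a replicate block and leaving out each library.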

Additional observations from a re-analysis of the deposited data

Results flagged for a closer look

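In each of the 25 tested receptor genes and in the summed level of all 46 genes and of each family, the Pomc library farthest from the others was set against the range of the 4 Pomc libraries. Of 32 such groups 5 stood apart by Dixon's critical value for 4 samples. All 5 are genes with at least 1 Pomc library at 0, to which the usual chance rate of about 1 in 20 does not apply, so the number flagged shows nothing about the libraries. Htr4 reached 5.97 TPM in Pomc replicate 1 against at most 0.756 TPM in the other Pomc libraries, Drd2 reached 3.45 TPM in Pomc replicate 1 against at most 0.372 TPM, and Chrm3 reached 4.51 TPM in Pomc replicate 4 against at most 0.743 TPM. Htr2c at 1.27 TPM in Pomc replicate 2 and Chrm2 at 0.156 TPM in Pomc replicate 1 stood apart because the other 3 Pomc libraries are listed at 0, where any value does so.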

How the results depend on the processing

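No receptor gene passed the threshold under any of the 15 alternatives run, in which 13 to 35 were tested and 0 to 5 had an unadjusted p under 0.05. The lowest adjusted p of a receptor gene was 0.0625, for Chrm2 without a trend in the prior variance; it was 0.0979 without a filter and 0.0696 with all 7 columns, which count Npy replicate 3 as a measurement of its own, and 0.439 or more under the other settings in which Chrm2 was tested. Adjusted p ranged from 0.152 to 0.9996 for Chrna7 and from 0.2 to 0.9993 for Htr6. Over all genes the count of calls, 57, was 37 with a pseudocount of 0.1, 33 without a filter, 205 with all 7 columns and 12 with a replicate block, and 22 to 69 without 1 library, lowest without Npy replicate 2. The split, 40 higher and 17 lower in Pomc, was 21 and 21 without a trend, 29 and 8 with a pseudocount of 0.1, 10 and 2 with the block, 68 and 1 without Npy replicate 1 and 21 and 1 without Npy replicate 2. The scalings moved the median log2 fold change of all genes by less than 0.1 and turned no receptor gene. Of 353 values of single receptor genes under an alternative, 339 kept their direction and their side of the threshold and 14 changed sign, all in genes whose interval spans 0. With a replicate block Chrm4 was 0.70, Htr1b -0.0321 and Htr5a 0.35; Htr4 was -0.0313 with a pseudocount of 0.1 and -0.0208 with all 7 columns. Leaving out 1 library moved the log2 fold change by over 1.5 times in 15 of the 25 receptor genes and by less in 10. Among the 10 were Chrna7, Htr6 (1.71 to 2.72), Chrm2 (-1.90 to -1.83), Hrh1 and Chrna4. For some of the 10 this was partly fixed in advance. Chrm2 was not tested without either Npy library, so its range comes from leaving out Pomc libraries alone. Htr6 is at 0 in both Npy libraries, so leaving out either could not change it. Adra2c and Chrnb4, also among the 10, were not tested without some of the Pomc libraries. Without Npy replicate 2, Chrna3 was 0.00341, Htr1b 0.14, Drd2 -1.82 and Htr2c -1.66. Without 1 library, log2 fold changes ran from -1.19 to 0.60 for Adrb1, -0.65 to 0.0616 for Chrm4, -0.80 to 1.30 for Htr3a, -0.81 to 0.35 for Htr4 and -0.37 to 0.19 for Htr5a. The cause was not tested. The block leaves the comparison to replicates 1 and 2, and without an Npy library the remaining one is assumed to vary like the Pomc group. With 2 Npy libraries the precision was low: the intervals of 8 of the 25 receptor genes include 2-fold differences in both directions, and those of 24 include one in at least 1 direction.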
